A study of Mus musculus with 7 samples.

Results

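The ADAM, ADAMTS, ADAMTS-like, MMP and TIMP genes were followed in 7 RNA libraries from mouse midbrain. Every gene row whose symbol was Adam, Adamts, Adamtsl, Mmp or Timp followed by its number was taken, which gave 84 of the 32531 gene rows: 33 ADAM, 24 ADAMTS and ADAMTS-like, 23 MMP and 4 TIMP genes. The choice used symbols alone and no measured value. All libraries came from adult, untreated control mice of the line Stard8-TRAP ES2342, which carries EGFP/Rpl10a, the ribosomal protein Rpl10a joined to a green fluorescent protein, in a transgene named for Stard8. Tagged polysomes were pulled out of homogenate with antibodies against EGFP and gave 3 IP libraries (replicates 1, 2 and 4). RNA that stayed off the beads gave 4 unbound libraries (replicates 1 to 4). The submitters describe the profile as one of neurons. The exact age and sex of the mice, how many entered each library and the cells that carry the tag are not known from the labels, so p-values measure the spread between these libraries, which may in part be technical. Unbound RNA came from all cells of the homogenate, the tagged ones included.

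Members of these families cut proteins outside the cell or at its surface. ADAM proteins sit in the membrane with a metalloprotease domain and a disintegrin domain, and the active ones release the outer part of receptors, ligands and adhesion proteins, a step called shedding. ADAMTS proteins are secreted, bind matrix through thrombospondin repeats and cut proteoglycans, procollagens and other matrix proteins, whereas ADAMTS-like proteins lack the protease domain. MMPs are secreted or membrane-held proteases of collagen, gelatin, basement membrane and many signalling proteins. TIMPs are small secreted proteins that block the active site of MMPs and, for some pairs, of ADAM and ADAMTS proteases. In the brain these proteins act in the vessel wall, at synapses and in the matrix nets around neurons.

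Levels are given as CPM, counts per 1e6 of the effective library size, which is the count in genes times the TMM scaling factor. Libraries held 52052340 to 76114634 counts in genes, so that 3 counts, used here as the floor, equalled 0.0376 to 0.059 CPM. These floors cover counting error only. Differences are log2 fold changes of IP over unbound with their standard error, and each adjusted p comes from edgeR's quasi-likelihood test with Benjamini-Hochberg adjustment over the 17654 genes tested, with a threshold of 0.05. The tag's gene Stard8 reached 352 ± 111 CPM in IP and 4.23 ± 0.569 CPM in unbound (SD, n = 3 and 4 here and below). For Rpl10a itself, whose sequence the tag shares, the log2 fold change was 1.0 ± 0.51 (adjusted p = 0.142). Lanes 2 and 5 held only IP libraries and lanes 1 and 3 only unbound libraries, so lane and library kind cannot be told apart.

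Cell type markers differed widely between the kinds of library. The 12 endothelial markers summed to 2504 to 3348 CPM in IP and 45.8 to 69.7 CPM in unbound, and all 12 were higher in IP. The 12 markers of mural cells, the pericytes and smooth muscle of vessels, summed to 4051 to 5759 CPM in IP and 36.9 to 54.9 CPM in unbound, again all 12 higher. The 12 microglia and macrophage markers summed to 1335 to 1407 CPM in IP and 44.8 to 81.5 CPM in unbound, all 12 higher, and 5 of 6 fibroblast markers were higher at 65.7 to 84.6 CPM in IP and 11.2 to 23.2 CPM in unbound. The 12 neuron markers were all lower in IP, at 3684 to 8230 CPM in IP and 14270 to 22380 CPM in unbound, as were 9 of 10 oligodendrocyte markers, at 1234 to 1892 CPM in IP and 5591 to 7677 CPM in unbound, and 6 of 7 markers of their precursors, at 78.9 to 115 CPM in IP and 258 to 392 CPM in unbound. Of 10 astrocyte markers 6 were higher and none was lower. No gene of these lists was at 0 in every library of a kind. In bulk RNA, fewer cells of a type and less RNA per cell cannot be told apart. The part of cell makeup in the differences below was not tested, except where a value is given. The 4 hindbrain Hox genes summed to 23.7 and 13 CPM in unbound 3 and 4 and 3.44 CPM in IP 4, the 3 libraries with index GTGAAA, and to at most 0.515 CPM in the other four, with index ACAGTG. The 3 forebrain genes were highest in IP 4, at 28.5 CPM.

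Of the 84 members, 15 had no count in any library, 13 had counts but fell under the filter on low values, and 56 were tested. Of the tested members, 9 were higher in IP, 14 were lower and 33 missed the threshold. Of the 9, Adam3 and Mmp25 passed the filter through IP libraries alone, so their calls are no independent support for a difference. Of the 14, Adamts19 passed it only with the unbound libraries, where it was high, and the same limit holds for its call. The 23 calls are 41.1% of those tested, beside 39.4% of all genes tested, 20.5% higher and 18.9% lower, so the families as a whole changed about as often as genes in general. Every IP library lay above every unbound library for 12 members and below for 12, where 25.1% and 22.7% of all tested genes did so. The median log2 fold change was -0.38 over the 56 tested members and -0.10 over all tested genes. Counts in IP-lower members rest on IP 1 and IP 2, as do those of all genes, which numbered 3622 higher and 3328 lower with all libraries. Without IP 1, 8 members were higher and 7 lower, beside 2915 and 1899 of all genes. Without IP 2, 9 members were higher and 8 lower, beside 2796 and 1751 of all genes. Within index ACAGTG, with 2 libraries of each kind, 6 members were higher and 6 lower, beside 2190 and 1650 of all genes. Within index GTGAAA the lone IP library was assumed to vary like the others, so its counts of calls are not set beside these. Within ACAGTG Adam3 was not called, and the other called members that missed the threshold were Adam11 (adjusted p = 0.0546), Adam22 (adjusted p = 0.061), Adamts2 (adjusted p = 0.0983), Adamts20 (adjusted p = 0.0577), Adamtsl1 (adjusted p = 0.241), Mmp16 (adjusted p = 0.0519), Mmp24 (adjusted p = 0.0602), Mmp28 (adjusted p = 0.254), Timp2 (adjusted p = 0.102) and Timp4 (adjusted p = 0.146), all in the same direction as with 7 libraries. Members of the same family went both ways, as the plot of fold changes by role shows.

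**Figure D1:**
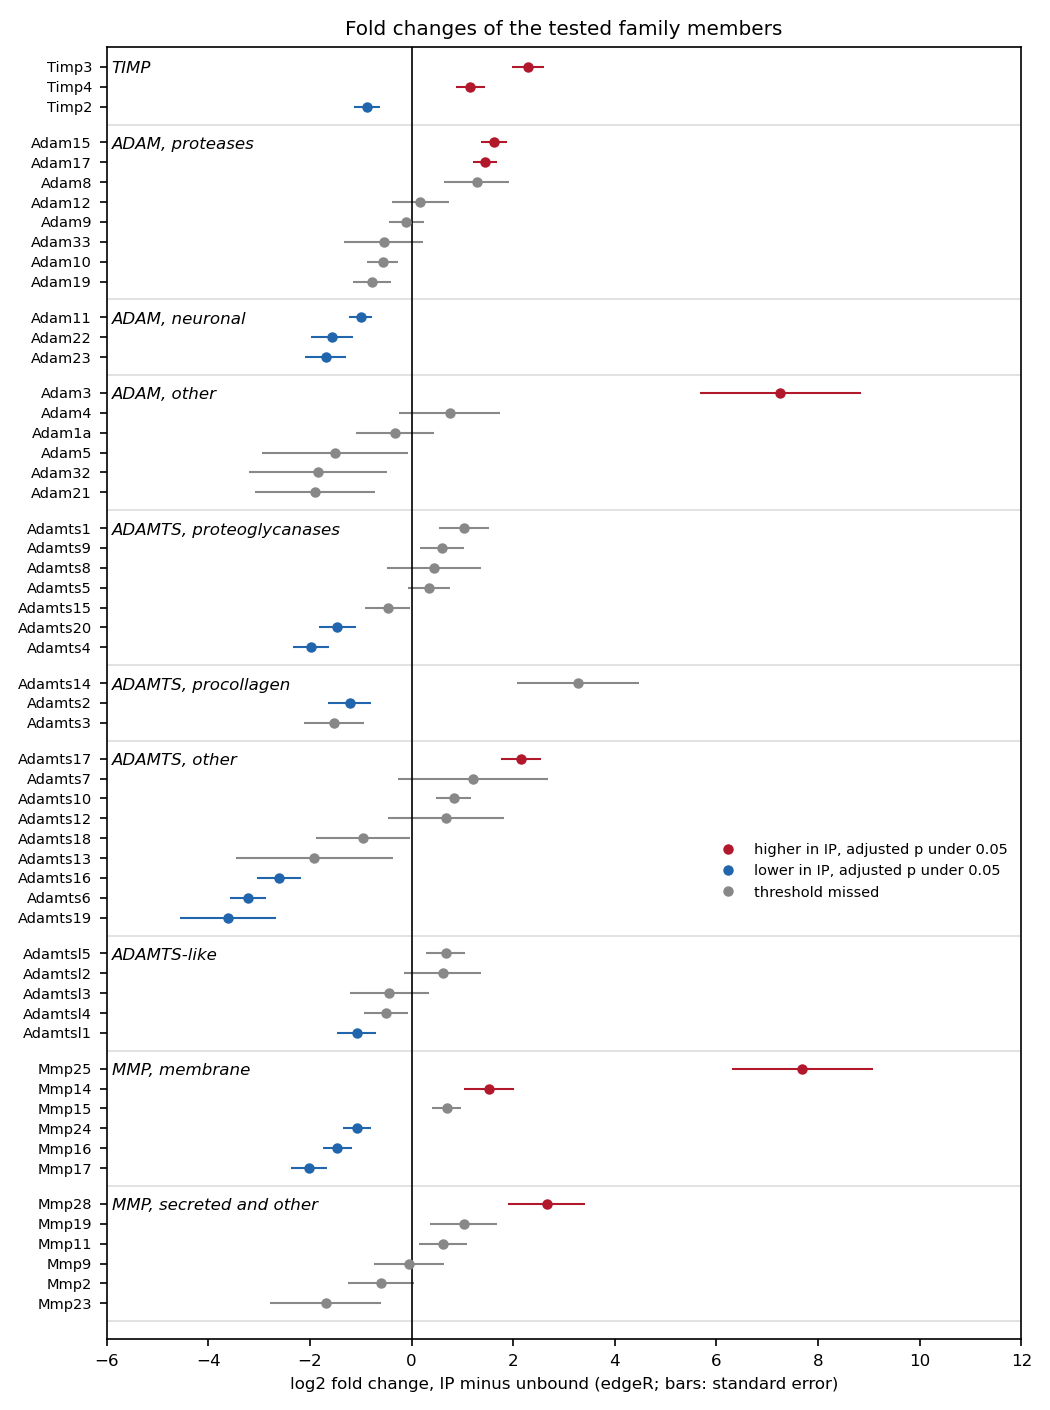
Log2 fold change of IP over unbound (x axis) for the 56 tested members, grouped by role, with bars of 1 standard error. Red points (9 members) were higher and blue points (14 members) lower at an adjusted p under 0.05, and grey points missed the threshold. Values run from -3.61 for Adamts19 to 7.69 for Mmp25, and each family holds points on both sides of 0.

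For members the differences turn on, the stretch just before an annotated start site is shown. The 3 members with the smallest p in each direction were taken whose window lies in the RefSeq promoter table (GRCm38.p6) and overlaps no annotated exon. Each window holds 200 bases, from 250 to 51 bases before the start site, 5′ to 3′ on the gene's strand. Of these windows 5 lie before the gene, and that of Adamts20 belongs to a start site inside the gene, which spans 94270163 to 94465418. Capitals mark the GC box, GGGCGG or CCGCCC on the other strand.

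Windows of 3 members higher in IP.
Timp3, chr10:86300162-86300361, plus strand: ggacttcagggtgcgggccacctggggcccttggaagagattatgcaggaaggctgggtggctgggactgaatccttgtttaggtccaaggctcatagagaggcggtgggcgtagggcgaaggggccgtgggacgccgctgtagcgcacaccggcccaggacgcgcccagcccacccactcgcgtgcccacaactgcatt
Mmp25, chr17:23645320-23645519, minus strand: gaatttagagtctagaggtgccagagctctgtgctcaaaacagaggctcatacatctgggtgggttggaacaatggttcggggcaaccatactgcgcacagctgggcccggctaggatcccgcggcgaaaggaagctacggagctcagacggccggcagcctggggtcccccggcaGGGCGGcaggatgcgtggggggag
Adamts17, chr7:66839485-66839684, plus strand: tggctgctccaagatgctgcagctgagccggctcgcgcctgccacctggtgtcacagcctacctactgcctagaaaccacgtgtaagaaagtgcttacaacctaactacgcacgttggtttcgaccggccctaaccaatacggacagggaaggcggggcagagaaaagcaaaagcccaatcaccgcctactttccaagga

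Windows of 3 members lower in IP.
Adam23, chr1:63445641-63445840, plus strand: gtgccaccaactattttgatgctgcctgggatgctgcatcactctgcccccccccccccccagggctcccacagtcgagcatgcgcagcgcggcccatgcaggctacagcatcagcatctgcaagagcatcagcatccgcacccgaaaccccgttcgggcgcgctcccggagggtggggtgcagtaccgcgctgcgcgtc
Mmp24, chr2:155775092-155775291, plus strand: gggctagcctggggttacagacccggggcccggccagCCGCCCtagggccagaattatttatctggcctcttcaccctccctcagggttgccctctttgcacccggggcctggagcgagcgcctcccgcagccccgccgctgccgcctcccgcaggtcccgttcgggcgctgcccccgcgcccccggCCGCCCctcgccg
Adamts20, chr15:94404401-94404600, minus strand: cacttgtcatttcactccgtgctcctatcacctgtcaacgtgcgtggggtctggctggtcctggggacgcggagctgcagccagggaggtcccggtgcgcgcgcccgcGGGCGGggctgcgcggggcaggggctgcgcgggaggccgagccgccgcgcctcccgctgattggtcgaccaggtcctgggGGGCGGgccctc

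Among these, Mmp25 held 1 GC box, Mmp24 and Adamts20 held 2 each, and Timp3, Adamts17 and Adam23 held none. The ETS core (CCGGAA or TTCCGG) and the TATA box (TATAAA or TTTATA) were searched in the same way, each motif counted on its own even where matches overlap, and were in none of the 6 windows. In windows of the same length, 24.6% of the 32851 promoters of the table held a GC box, 8.03% an ETS core and 9.14% a TATA box. Promoter entries matched 53 of the 84 members and 14 of the 23 that passed the threshold. A GC box stood in 2 of 8 windows of members higher in IP, in 3 of 6 of members lower and in 9 of 22 of members that missed the threshold (some genes have more than 1 start site). Of the 22 windows of untested members, 0 held a GC box and 6 held a TATA box (27.3%). The median GC content was 58.5% in windows of higher members, 70.8% in those of lower members, 61.2% where the threshold was missed and 40.2% in untested members, against 51.5% over all promoters. No test was made of these shares. The called members without an entry were Adam3, Adam11, Adamts4, Adamts6, Adamts16, Adamts19, Adamtsl1, Mmp16 and Mmp17.

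Of the 4 TIMP inhibitors, Timp3 and Timp4 were higher on the tagged ribosomes, Timp2 was lower and Timp1 was nearly absent. Timp3, which stays bound to the matrix and also blocks ADAM17 and the ADAMTS proteoglycanases, measured 288, 320.3 and 235 CPM in IP 1, 2 and 4, against 66.8, 29.2, 64.1 and 69.7 CPM in unbound 1 to 4. All 3 IP libraries lay well above all 4 unbound libraries, among which unbound 2 was lowest. For Timp3 the log2 fold change was 2.29 ± 0.31 (adjusted p = 0.000241). Timp4, an inhibitor with high expression in brain and heart, measured 47.9, 47.8 and 49.3 CPM in IP 1, 2 and 4, against 18.6, 33.5, 15.7 and 18.4 CPM in unbound 1 to 4. Its IP values were nearly equal to each other, and unbound 2 came closest to them. For Timp4 the log2 fold change was 1.16 ± 0.28 (adjusted p = 0.00758), and within index ACAGTG it was 0.88 (adjusted p = 0.146).

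Timp2 blocks MMPs and also joins MMP14 in the activation of MMP2. It measured 252, 220.1 and 318 CPM in IP 1, 2 and 4, against 514, 372, 530.1 and 523 CPM in unbound 1 to 4. Every IP library was below every unbound library, with IP 4 nearest to unbound 2. For Timp2 the log2 fold change was -0.88 ± 0.25 (adjusted p = 0.017). The threshold was missed without IP 1 (adjusted p = 0.0752), without IP 2 (0.104) and without unbound 3 (0.0503). Timp1, the inhibitor known for its induction in injured tissue, was under the filter, at 0.12, 0.0697 and 0.629 CPM in IP 1, 2 and 4, against 0, 0.0344, 0.0569 and 0.0353 CPM in unbound 1 to 4. IP 4 held most of its counts.

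Position links 3 of these genes to neuronal neighbours. Timp1, Timp3 and Timp4 lie inside Syn1, Syn3 and Syn2, genes of synaptic vesicle proteins, on the opposite strand (GRCm38, GENCODE M21). Timp3 lies at chromosome 10, 86300372 to 86349506, plus strand, and 21.3% of its exon bases are also exon of Syn3. Timp4 lies at chromosome 6, 115241892 to 115252205, minus strand, with 1.5% shared with Syn2. The hosts were lower in IP or missed the threshold: the log2 fold changes were -1.31 ± 0.47 (adjusted p = 0.0469) for Syn1, -1.47 ± 0.34 (adjusted p = 0.00594) for Syn2 and -0.96 ± 0.35 (adjusted p = 0.0506) for Syn3. No source used here states whether the counting used strand, so Timp3 and Syn3 reads over shared exons cannot be told apart. Reads matching more than 1 gene made up 1.55% ± 0.107 of reads in IP and 9.95% ± 1.89 in unbound and were counted for no gene. The part of this in the Timp3 value was not tested. Timp2 (chromosome 11, 118301069 to 118355740, minus strand) shares no exon base with another gene.

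**Figure D2:**
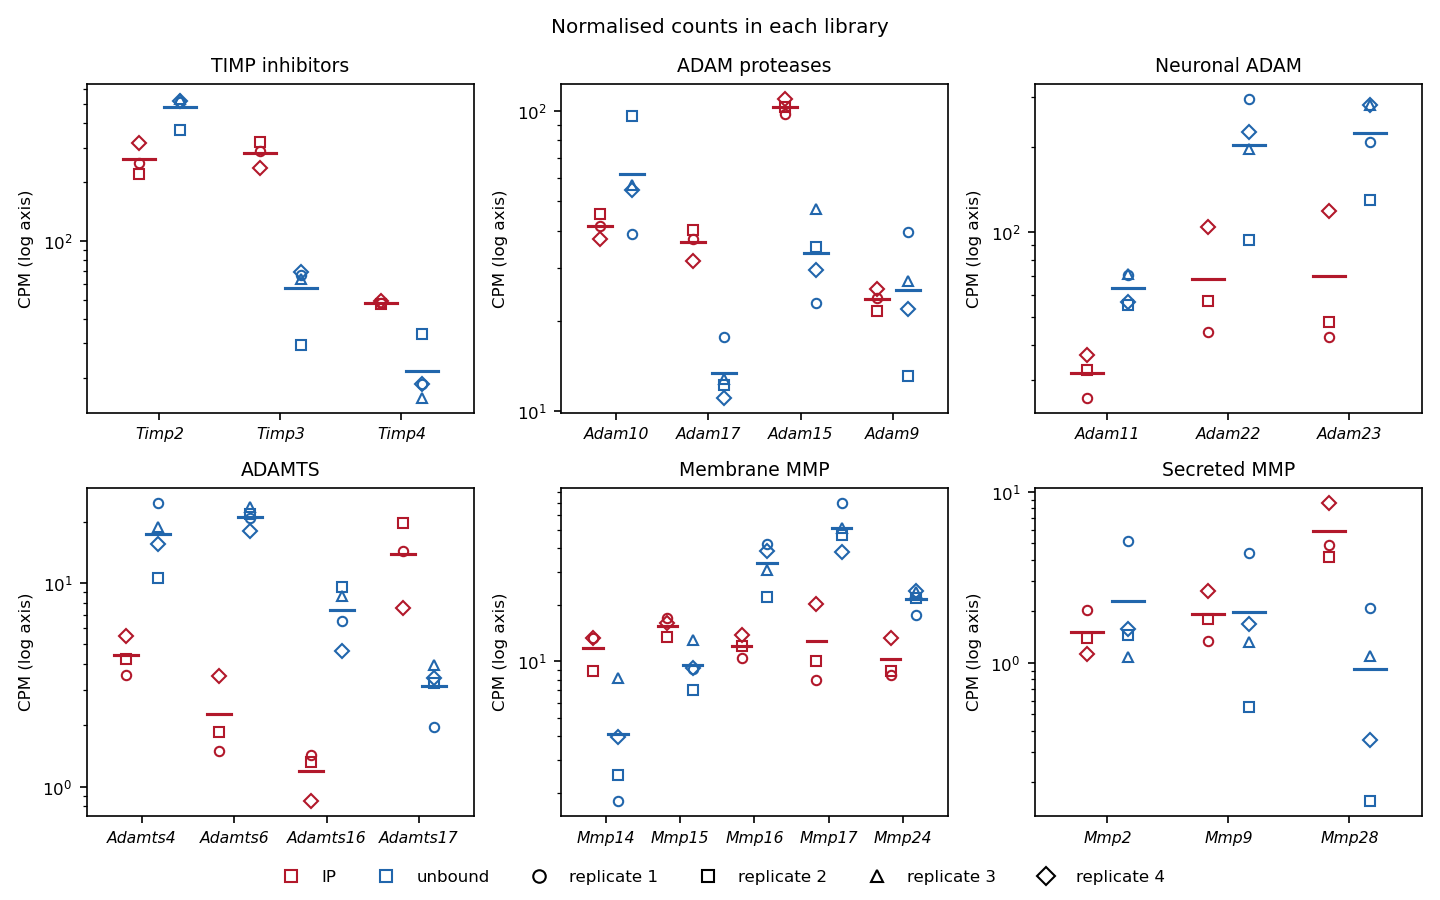
CPM (log axis) of selected members in each library, by family. Red marks IP and blue unbound, shapes mark the replicate number, and horizontal bars mark the mean of each group. Timp3, Adam15, Adam17 and Adamts17 sit higher in every IP library than in any unbound library, Adamts4, Adamts6, Mmp16 and Mmp17 lower, and Adam10, Mmp2 and Mmp9 overlap.

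Among the 9 widely expressed membrane ADAM proteases, Adam15 and Adam17 were higher in IP and the other tested members missed the threshold, Adam10 with them. Adam15, a protease whose disintegrin domain binds integrins, measured 98, 104 and 109.5 CPM in IP 1, 2 and 4, against 22.9, 35.4, 47 and 29.6 CPM in unbound 1 to 4. The lowest IP library stood clear of the highest unbound library. For Adam15 the log2 fold change was 1.62 ± 0.26 (adjusted p = 0.000721). It lies at chromosome 3, 89338542 to 89349996, minus strand, and 20.6% of its exon bases are shared with 4731419I09Rik, an antisense transcript, so the same limit of counting applies as for Timp3. Adam17, the protease that releases TNF and ligands of the EGF receptor, measured 37.5, 40.3 and 31.7 CPM in IP 1, 2 and 4, against 17.6, 12.2, 12.8 and 11.1 CPM in unbound 1 to 4. Every IP library was above every unbound library. For Adam17 the log2 fold change was 1.44 ± 0.24 (adjusted p = 0.00104).

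Adam10, the sheddase of Notch and of the amyloid precursor protein in neurons, measured 41.4, 45.3 and 37.6 CPM in IP 1, 2 and 4, against 38.8, 96.7, 56.9 and 54.6 CPM in unbound 1 to 4. The groups overlapped, since unbound 1 lay among the IP libraries and unbound 2 far above them. For Adam10 the log2 fold change was -0.57 ± 0.30 (adjusted p = 0.152), and it missed the threshold under all 17 alternatives, with values from -0.75 to -0.28. Adam9, another broad sheddase, measured 23.7 ± 2.06 CPM in IP and 25.4 ± 11.1 CPM in unbound, with a log2 fold change of -0.10 ± 0.34 (adjusted p = 0.832). Adam19, known from heart and nerve development, had a log2 change of -0.78 ± 0.38 (adjusted p = 0.13), and without unbound 2 it passed at -1.04 (adjusted p = 0.0104). Adam8, a protease of white blood cells, had a log2 change of 1.28 ± 0.64 (adjusted p = 0.134), and without unbound 1, its highest unbound library at 3.51 CPM, it passed at 2.04 (adjusted p = 0.0123). Adam12 (log2 change 0.17 ± 0.56, adjusted p = 0.84) and Adam33 (log2 change -0.55 ± 0.77, adjusted p = 0.6) overlapped between the groups, and Adam28 was under the filter.

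The proteins that carry these 2 sheddases through the cell were taken as a list of 9 cofactors. Of the 8 tested, 3 were higher and 2 lower, or 62.5% called beside 39.4% of all tested genes, with a median of 0.37. Rhbdf2 and Rhbdf1 encode the inactive rhomboids that escort ADAM17 to the surface. Rhbdf2 measured 11.3, 9.64 and 8.47 CPM in IP 1, 2 and 4, against 0.0125, 0.206, 0.171 and 0.3 CPM in unbound 1 to 4, and no unbound library came near an IP library. For Rhbdf2 the log2 fold change was 5.85 ± 0.71 (adjusted p = 0.00012). Its unbound libraries by themselves would not have passed the filter on low values, so this call is no independent support for a difference. Rhbdf1, named after its values were seen, had a log2 change of 2.75 ± 0.40 (adjusted p = 0.000363). Frmd8, which stabilises that complex, had a log2 change of 0.29 ± 0.27 (adjusted p = 0.427). ADAM10 is steered by tetraspanins. Tspan5, the most abundant of these by count, measured 155 ± 12.5 CPM in IP and 125 ± 16.1 CPM in unbound and had a log2 change of 0.31 ± 0.21 (adjusted p = 0.259). Tspan14 was higher (log2 change 0.85 ± 0.25, adjusted p = 0.0204), whereas Tspan17 (log2 change -0.93 ± 0.30, adjusted p = 0.032) and Tspan33 (log2 change -1.24 ± 0.35, adjusted p = 0.0164) were lower. Tspan33 missed the threshold without IP 2 (adjusted p = 0.0834) and without IP 4 (0.0546). Without IP 1 or IP 2, Tspan14 missed it (adjusted p = 0.0666 and 0.111), as without unbound 3 (0.0554) or unbound 4 (0.0548). Tspan17 missed it without IP 1 (0.0723), IP 2 (0.129), IP 4 (0.0771) or unbound 3 (0.0557). Within index ACAGTG, Tspan14, Tspan17 and Tspan33 missed it (adjusted p = 0.105, 0.0614 and 0.138), and within GTGAAA Tspan14 and Tspan17 did (0.0676 and 0.147). Tspan15 missed the threshold with all libraries, and Tspan10 was under the filter.

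All 3 neuronal ADAM members were lower in IP, beside 18.9% of all tested genes. These proteins have no protease activity: ADAM22 and ADAM23 are receptors at the synapse and axon for the secreted LGI proteins, and ADAM11 is a related protein of neurons. Adam11 measured 26, 32.5 and 36.8 CPM in IP 1, 2 and 4, against 70.7, 55.2, 71.1 and 56.7 CPM in unbound 1 to 4, with every IP library below every unbound library. For Adam11 the log2 fold change was -1.0 ± 0.23 (adjusted p = 0.00581). Adam22 measured 44.4, 57.3 and 104 CPM in IP 1, 2 and 4, against 295, 94.3, 196 and 226 CPM in unbound 1 to 4. IP 4 was above unbound 2, so the groups overlapped. For Adam22 the log2 fold change was -1.56 ± 0.41 (adjusted p = 0.0119), missed without IP 1 (adjusted p = 0.0573) or IP 2 (0.0621).

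Adam23 measured 42.5, 48 and 119 CPM in IP 1, 2 and 4, against 209, 129.8, 281 and 281 CPM in unbound 1 to 4. IP 4 again stood above the other IP libraries and just below unbound 2. For Adam23 the log2 fold change was -1.69 ± 0.41 (adjusted p = 0.00868), and without IP 2 the adjusted p was 0.0513. The 12 neuron markers summed to 3684, 4016 and 8230 CPM in IP 1, 2 and 4 and to 14270, 16630, 19800 and 22380 CPM in unbound 1 to 4, so IP 4 was highest among IP libraries there too. The median log2 fold change of those markers was -1.78, and the 3 ADAM genes lay at -1.0, -1.56 and -1.69. The part of neuron RNA in these 3 values was not tested.

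Of the 4 LGI ligands, 2 were lower and none was higher, where 18.9% of all tested genes were lower. Lgi3, by count the most abundant, measured 20.4, 21.3 and 53.7 CPM in IP 1, 2 and 4, against 87.5, 102, 133 and 97.2 CPM in unbound 1 to 4, with no overlap, and its log2 fold change was -1.72 ± 0.36 (adjusted p = 0.00385). Lgi2 had a log2 change of -1.70 ± 0.47 (adjusted p = 0.0148), missed without IP 1 (adjusted p = 0.0557) or IP 2 (0.0552) and within index ACAGTG (0.0702). Lgi1, the ligand mutated in a familial epilepsy, had a log2 change of -0.41 ± 0.29 (adjusted p = 0.28), and its groups overlapped. Lgi4, which acts on glia that wrap axons, lay above every unbound library in IP at 9.81 ± 1.58 CPM in IP and 5 ± 1.96 CPM in unbound but missed the threshold (log2 change 0.97 ± 0.39, adjusted p = 0.0727). Lgi1, Lgi2 and Lgi4 were named after their values were seen.

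The other 21 ADAM genes are known mostly from testis and sperm, and only 6 passed the filter. Adam3, a sperm surface protein needed for fertilisation, was the one called: it held 57 counts over the IP libraries and 0 over the unbound libraries. Its levels were 0.36, 0.192 and 0.373 CPM in IP 1, 2 and 4, and against the floor of 3 counts over the unbound group it was at least 25.7-fold higher. It passed the filter through the IP libraries alone, so its call is no independent support for a difference. It lies at chromosome 8, 24677225 to 24725852, minus strand, in a run of 5 ADAM genes over 414.7 kb with Adam18, Adam5, Adam32 and Adam9. Neither Adam5 (log2 change of -1.51 ± 1.44) nor Adam32 (-1.84 ± 1.35) in that run passed the threshold. Adam21, by count the most abundant of the group, measured 0.293, 0.418 and 0 CPM in IP 1, 2 and 4, against 0.351, 0.412, 1.67 and 1.17 CPM in unbound 1 to 4. Its groups overlapped, and the log2 fold change was -1.90 ± 1.19 (adjusted p = 0.228). Adam4 (log2 change 0.75 ± 1.0, adjusted p = 0.581) was high in IP 2 alone, at 1.88 CPM against at most 0.456 elsewhere. Adam1a had a log2 change of -0.32 ± 0.77 (adjusted p = 0.771), with 63.7% of its exon bases shared with other genes.

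Of the untested ADAM genes, Adam6a, Adam6b, Adam20, Adam26b, Adam29, Adam30, Adam34 and Adam39 had no count, which allows up to 0.00697 CPM over the 7 libraries together. Adam2, Adam7, Adam18, Adam24, Adam25, Adam26a and Adam1b had between 1 and 48 counts in all. Adam25 was seen mainly in IP 2, at 0.47 CPM, and Adam18 mainly in unbound 2 to 4. Several of these genes are close copies of a neighbour (Adam6a and Adam6b, Adam1a and Adam1b, Adam26a and Adam26b). Reads that align to more than 1 place were counted for no gene, so their counts are uncertain.

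All 24 ADAMTS and ADAMTS-like genes were tested, and 1 was higher and 7 were lower in IP. That is 33.3% called, beside 39.4% of all tested genes, 20.5% higher and 18.9% lower. Of the 7 proteoglycanases, which cut aggrecan, brevican or versican, Adamts4 and Adamts20 were lower. Adamts4 measured 3.55, 4.25 and 5.5 CPM in IP 1, 2 and 4, against 24.8, 10.6, 18.8 and 15.5 CPM in unbound 1 to 4. Each IP library was below each unbound library. For Adamts4 the log2 fold change was -1.98 ± 0.35 (adjusted p = 0.00153). Adamts20 measured 2.99, 4.44 and 3.34 CPM in IP 1, 2 and 4, against 13.9, 9.05, 10.3 and 6.16 CPM in unbound 1 to 4, also without overlap. For Adamts20 the log2 fold change was -1.46 ± 0.37 (adjusted p = 0.00984), and without IP 1 the adjusted p was 0.051. Oligodendrocyte markers and precursor markers fell with them, in 9 of 10 and 6 of 7, and the part of those cells in both values was not tested.

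The other proteoglycanases missed the threshold. Adamts1 had a log2 change of 1.04 ± 0.49 (adjusted p = 0.118), Adamts5 0.34 ± 0.41 (adjusted p = 0.542), Adamts9 0.60 ± 0.43 (adjusted p = 0.294), Adamts15 -0.47 ± 0.44 (adjusted p = 0.419) and Adamts8 0.44 ± 0.93 (adjusted p = 0.734). Adamts1 and Adamts5 lie next to each other on chromosome 16 (85793827 to 85901828), and Adamts8 and Adamts15 on chromosome 9 (30899155 to 30963838). Adamts1 was highest in IP 2 and IP 4, at 16 and 17.2 CPM, and overlapped through IP 1, at 8.4 CPM.

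Genes of the matrix these enzymes cut were taken as a list of 11 proteoglycans, link proteins and partners. Of these 6 were lower and 2 higher, or 72.7% called beside 39.4% of all tested genes, with a median of -1.30. The proteoglycan genes split: Acan, encoding aggrecan of the nets around neurons, measured 1.09 ± 0.473 CPM in IP and 6.2 ± 2.42 CPM in unbound (log2 change -2.50 ± 0.50, adjusted p = 0.00305), and Vcan, encoding versican, 4.64 ± 0.471 CPM in IP and 17.6 ± 6.3 CPM in unbound (log2 change -1.93 ± 0.37, adjusted p = 0.00226). Bcan and Ncan, encoding brevican and neurocan, stood at 0.15 ± 0.29 (adjusted p = 0.718) and -0.14 ± 0.35 (adjusted p = 0.783) on the log2 scale. These 4 were named after their values were seen. Hapln2, a link protein of the nodes of Ranvier, measured 5.11, 4.98 and 6.64 CPM in IP 1, 2 and 4, against 13.3, 32.3, 35.1 and 25.2 CPM in unbound 1 to 4, with no overlap and a log2 fold change of -2.25 ± 0.36 (adjusted p = 0.000769). Hapln4, a link protein of perineuronal nets, had a log2 change of -1.79 ± 0.36 (adjusted p = 0.0032). Hapln3 went the other way, at 2.13 ± 1.08 CPM in IP and 0.194 ± 0.165 CPM in unbound. Its log2 change was 3.46 ± 1.08 (adjusted p = 0.026), missed without IP 1 (adjusted p = 0.0704), IP 2 (0.104) or unbound 3 (0.0646). Its unbound libraries by themselves would not have passed the filter on low values. The Hapln3 call, 1 of the 2 higher in this list, is thus no independent support for a difference. Hapln1 and Tnr were also lower (-1.61 ± 0.46 and -1.30 ± 0.36 on the log2 scale). Without IP 1 or IP 2 they missed the threshold (adjusted p = 0.0799 and 0.0748 for Hapln1, 0.0735 and 0.0758 for Tnr), Hapln1 also without unbound 4 (0.0548). Fbln2, a partner of versican and aggrecan in vessel walls, was higher (log2 change 2.33 ± 0.73, adjusted p = 0.0272), missed without IP 2 (0.0793), IP 4 (0.077) or unbound 3 (0.0532). Within index ACAGTG the threshold was missed by Acan (adjusted p = 0.0965), Vcan (0.0867), Hapln1 (0.132), Hapln3 (0.143) and Fbln2 (0.0904), and within GTGAAA by Hapln3 (0.115).

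Of the 3 procollagen peptidases, which trim the ends of collagen precursors, Adamts2 was lower. It measured 3.35, 5.49 and 10.1 CPM in IP 1, 2 and 4, against 13, 8.97, 22 and 14.8 CPM in unbound 1 to 4. IP 4 lay above unbound 2. For Adamts2 the log2 fold change was -1.22 ± 0.43 (adjusted p = 0.0441), and it missed the threshold without IP 1 (adjusted p = 0.157), IP 2 (0.144), unbound 1 (0.0545), unbound 3 (0.124) or unbound 4 (0.0788). Adamts3, which also helps to activate VEGF-C, had a log2 change of -1.53 ± 0.59 (adjusted p = 0.0602), and without unbound 2 it passed (adjusted p = 0.0144). Adamts14 lay above every unbound library in IP, at 0.254, 0.505 and 0.767 CPM against 0.0125, 0.0515, 0 and 0.141 CPM, and just missed the threshold (log2 change 3.27 ± 1.20, adjusted p = 0.0512). It passed without unbound 4 (adjusted p = 0.0308), with DESeq2 (0.041) and with limma voom (0.0295). Adamts14 passed the filter on low values through the IP libraries alone. Neither these passes nor the lack of overlap are thus independent support for a difference.

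Of the 9 other ADAMTS genes, 3 were lower, 1 was higher and 5 missed the threshold, or 44.4% called beside 39.4% of all tested genes. Adamts6, whose protein acts on the fibrillin matrix, measured 1.49, 1.85 and 3.48 CPM in IP 1, 2 and 4, against 20.8, 21.8, 23.6 and 18.1 CPM in unbound 1 to 4. IP 4 was the highest IP library and still far under every unbound library. For Adamts6 the log2 fold change was -3.22 ± 0.36 (adjusted p = 7.38e-05). Adamts16 measured 1.43, 1.32 and 0.845 CPM in IP 1, 2 and 4, against 6.52, 9.54, 8.65 and 4.66 CPM in unbound 1 to 4, without overlap. For Adamts16 the log2 fold change was -2.61 ± 0.43 (adjusted p = 0.000908). Adamts19 measured 0.173, 0.436 and 0.0197 CPM in IP 1, 2 and 4, against 4.29, 2.66, 2.5 and 0.882 CPM in unbound 1 to 4. Counts in IP 4 were at 1, under the floor, and for Adamts19 the log2 fold change was -3.61 ± 0.95 (adjusted p = 0.0125), with an adjusted p of 0.0516 without IP 1. Its IP libraries by themselves would not have passed the filter on low values, so this call is no independent support for a difference.

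Adamts17, a relative that binds fibrillin, was the one ADAMTS gene higher in IP. It measured 14.4, 19.7 and 7.53 CPM in IP 1, 2 and 4, against 1.97, 3.21, 3.95 and 3.41 CPM in unbound 1 to 4. IP 4 was the lowest IP library and still above every unbound library. For Adamts17 the log2 fold change was 2.15 ± 0.39 (adjusted p = 0.00173), called under all 17 alternatives. It spans chromosome 7, 66839735 to 67153171, plus strand. Adamts10, a near relative in sequence and fibrillin binding, lay above every unbound library in IP at 5.98 ± 0.414 CPM in IP and 3.36 ± 0.645 CPM in unbound but missed the threshold (log2 change 0.83 ± 0.35, adjusted p = 0.081). DESeq2 called it (adjusted p = 0.0335). Adamts7, Adamts12, Adamts13, the protease of von Willebrand factor, and Adamts18 were low and overlapped, with log2 fold changes of 1.21 ± 1.47, 0.67 ± 1.14, -1.91 ± 1.55 and -0.96 ± 0.92.

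Among the 5 ADAMTS-like genes, Adamtsl1 was lower at 2.28, 4.08 and 5.05 CPM in IP 1, 2 and 4, against 6.44, 5.94, 10.2 and 9.69 CPM in unbound 1 to 4. IP 4 came near unbound 2 without passing it. For Adamtsl1 the log2 fold change was -1.08 ± 0.39 (adjusted p = 0.0477), and without IP 1, IP 2, unbound 3 or unbound 4 the adjusted p was 0.183, 0.117, 0.123 and 0.11. Adamtsl4, whose protein holds the zonular fibres of the eye lens, was by count the most abundant, at 12.3, 10.7 and 12.3 CPM in IP 1, 2 and 4, against 10.6, 7.32, 29.5 and 19.1 CPM in unbound 1 to 4, and had a log2 change of -0.50 ± 0.43 (adjusted p = 0.382). Unbound 3 was the highest library and unbound 2 the lowest, with the IP libraries between. Adamtsl2, Adamtsl3 and Adamtsl5 had a log2 change of 0.61 ± 0.76, -0.44 ± 0.78 and 0.67 ± 0.38, all missing the threshold.

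All 6 membrane MMPs were tested: Mmp14 and Mmp25 were higher in IP, Mmp16, Mmp17 and Mmp24 lower, and Mmp15 missed the threshold. That is 83.3% called, beside 39.4% of all tested genes. Mmp14, which activates MMP2 at the cell surface and cuts fibrillar collagen, measured 13.4, 8.85 and 13.3 CPM in IP 1, 2 and 4, against 1.79, 2.47, 8.2 and 3.95 CPM in unbound 1 to 4. Every IP library was above every unbound library, with IP 2 just over unbound 3. For Mmp14 the log2 fold change was 1.53 ± 0.49 (adjusted p = 0.0289), missed without IP 1 (adjusted p = 0.0853), IP 4 (0.0741), unbound 2 (0.0533) or unbound 4 (0.0649). Mmp15, close to MMP14 in sequence, measured 15.5 ± 1.83 CPM in IP and 9.6 ± 2.46 CPM in unbound, with every IP library above every unbound library and a log2 change of 0.69 ± 0.28 (adjusted p = 0.0751).

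Mmp25, held to the membrane by a lipid anchor and known from neutrophils, had 420 counts in IP and 2 in unbound. The ratio of its levels was 284, with a 95% interval of 78 to 2350 for counting error in the pooled counts. That interval leaves out the spread between libraries, which exceeded sampling noise in every pair. Per library Mmp25 measured 3.11, 3.08 and 0.197 CPM in IP 1, 2 and 4, so IP 4 was far under the other pair. Mmp25 too passed the filter through the IP libraries alone. Neither its call nor this ratio is thus independent support for a difference. The 5 neutrophil markers found summed to 3.43, 2.28 and 20.5 CPM in the same libraries and to at most 0.935 CPM in unbound. Only 2 of the 5 passed the filter. IP 4 was lowest of the IP libraries in Mmp25 and highest in these markers, and the part of neutrophil RNA in Mmp25 was not tested. Retnlg was at 0 in every unbound library, and Camp was at most 0.0882 CPM in any library. Mmp8, the collagenase of neutrophils, was under the filter, at 0.0667, 0.593 and 0 CPM in IP 1, 2 and 4.

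Mmp17, also held by a lipid anchor, was by count the most abundant membrane MMP, at 7.94, 10.1 and 20.3 CPM in IP 1, 2 and 4, against 70.0, 47.2, 51.3 and 38.5 CPM in unbound 1 to 4. IP 4 stood above IP 1 and IP 2 and below every unbound library. For Mmp17 the log2 fold change was -2.02 ± 0.36 (adjusted p = 0.00154). Mmp16 measured 10.4, 12.1 and 13.9 CPM in IP 1, 2 and 4, against 42.2, 22, 30.8 and 38.5 CPM in unbound 1 to 4, without overlap. For Mmp16 the log2 fold change was -1.46 ± 0.28 (adjusted p = 0.0024). Mmp24, known from neurons, where it cuts N-cadherin, measured 8.51, 8.94 and 13.4 CPM in IP 1, 2 and 4, against 17.6, 21.8, 23.4 and 23.6 CPM in unbound 1 to 4, also without overlap. For Mmp24 the log2 fold change was -1.07 ± 0.27 (adjusted p = 0.00981), missed without IP 1 (adjusted p = 0.0572) or IP 2 (0.0576). Of its exon bases, 13.6% are shared with BC029722 on the opposite strand. Neuron markers were lower in the same libraries (sums given above), and their part in these 3 values was not tested.

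Of the 17 secreted and other MMPs, 6 were tested and 1 was called, or 16.7% of those tested beside 39.4% of all tested genes. Mmp28, a furin-activated MMP known from epithelium and macrophages, measured 4.87, 4.18 and 8.61 CPM in IP 1, 2 and 4, against 2.08, 0.155, 1.1 and 0.353 CPM in unbound 1 to 4. IP 4 was highest, and all IP libraries were above all unbound libraries. For Mmp28 the log2 fold change was 2.66 ± 0.76 (adjusted p = 0.0176), missed without IP 4 (adjusted p = 0.0646). The gelatinases, the MMPs most often studied in brain injury and synaptic change, did not separate. Mmp2 measured 2.03, 1.39 and 1.12 CPM in IP 1, 2 and 4, against 5.12, 1.46, 1.08 and 1.57 CPM in unbound 1 to 4, and Mmp9 1.35, 1.79 and 2.61 CPM in IP 1, 2 and 4, against 4.36, 0.55, 1.33 and 1.69 CPM in unbound 1 to 4. Unbound 1 was the highest library for both, and the IP libraries lay inside the unbound range. For Mmp2 the log2 fold change was -0.61 ± 0.65 (adjusted p = 0.485) and for Mmp9 -0.05 ± 0.69 (adjusted p = 0.962). Without unbound 1 both were above 0, at 0.14 (adjusted p = 0.849) and 0.69 (0.377).

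Mmp19 showed the same unbound 1, at 3.42 CPM against 0.626 to 0.807 in the other unbound libraries and 3.27, 2.86 and 2.54 in IP 1, 2 and 4. Its log2 fold change was 1.03 ± 0.66 (adjusted p = 0.241), and without unbound 1 it passed at 1.95 (adjusted p = 0.00996). Of its exon bases, 28.3% are shared with other genes. Mmp11 (log2 change 0.62 ± 0.47, adjusted p = 0.321) and Mmp23 (log2 change -1.69 ± 1.09, adjusted p = 0.243) overlapped. A run of 10 MMP genes on chromosome 9, from 7272514 to 7699585, held few counts: Mmp1a, Mmp1b, Mmp7, Mmp10, Mmp20 and Mmp27 had no count, and Mmp3, Mmp8, Mmp12 and Mmp13 held 109 counts together. Mmp13, a collagenase of cartilage and bone, was highest in IP 4, at 0.511 CPM. Mmp21, on chromosome 7, had no count. The 4 genes of the run with counts were under the filter on low values and were not tested, with Mmp8 at 34 counts in IP 2 and Mmp13 at 26 in IP 4.

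Genes that switch these proteases on or off were tested as a list of 13: 3 were higher, 2 lower and 8 missed the threshold, with a median of -0.13. That is 38.5% called, near the 39.4% of all tested genes. Reck, a membrane-anchored inhibitor of MMPs and of ADAM10, measured 49.2, 32.2 and 77 CPM in IP 1, 2 and 4, against 9.75, 6.51, 6.81 and 6.85 CPM in unbound 1 to 4, with no overlap. For Reck the log2 fold change was 2.82 ± 0.32 (adjusted p = 7.08e-05). Bsg, an immunoglobulin-like surface protein known as an inducer of MMPs and abundant on brain vessels, measured 1185 ± 107 CPM in IP and 303 ± 106 CPM in unbound (log2 change 1.97 ± 0.29, adjusted p = 0.000436). Furin, the convertase that removes the inhibitory prodomain of ADAMs and membrane MMPs, measured 37.4 ± 4.57 CPM in IP and 15.8 ± 5.19 CPM in unbound (log2 change 1.24 ± 0.29, adjusted p = 0.00664), and missed the threshold within index ACAGTG (adjusted p = 0.0631). The testicans, proteoglycans that modulate membrane MMPs, went the other way or missed: Spock3 was lower at 16 ± 8.5 CPM in IP and 74.8 ± 3.32 CPM in unbound (log2 change -2.23 ± 0.33, adjusted p = 0.00045), Spock1 had a log2 change of -1.62 ± 0.48 (adjusted p = 0.0202), missed without IP 1 (adjusted p = 0.0809) or IP 2 (0.0936), and Spock2, at 719.6 ± 74.4 CPM in IP and 955 ± 261 CPM in unbound, had a log2 change of -0.41 ± 0.28 (adjusted p = 0.277), which passed without unbound 2 (0.0305). The broad inhibitors A2m and Pzp and their clearing receptor Lrp1 had log2 fold changes of 0.75 ± 0.54, -0.20 ± 0.87 and -0.21 ± 0.31, all missing the threshold. Bsg, Furin and Spock1 were named after their values were seen.

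Proteins shed by ADAM10 or ADAM17 were followed through 24 genes, 23 of them tested: 11 were higher and 6 lower, with a median of 0.61. That is 73.9% called, beside 39.4% of all tested genes, 20.5% higher and 18.9% lower. Il6ra, the receptor chain of interleukin 6, measured 32.1, 42.2 and 42.6 CPM in IP 1, 2 and 4, against 2.52, 1.53, 3.09 and 2.33 CPM in unbound 1 to 4, and the groups lay far apart. For Il6ra the log2 fold change was 4.04 ± 0.30 (adjusted p = 4.62e-06). Tnfrsf1a, a TNF receptor, had a log2 change of 4.10 ± 0.32 (adjusted p = 5.56e-06), Axl, a receptor of macrophages and vessels that takes part in clearing dead cells, 3.78 ± 0.31 (adjusted p = 7.59e-06), Notch1 2.94 ± 0.27 (adjusted p = 1.69e-05) and Cdh5, the cadherin of endothelial junctions, 5.88 ± 0.62 (adjusted p = 4.52e-05). Cdh5 is also one of the endothelial markers. App, the amyloid precursor protein gene and by count the most abundant of the list, measured 160.1, 183 and 285 CPM in IP 1, 2 and 4, against 419, 325, 514 and 535 CPM in unbound 1 to 4. Its IP libraries were all below its unbound libraries, with a log2 fold change of -1.10 ± 0.29 (adjusted p = 0.0126), missed without IP 1 (adjusted p = 0.0691) or IP 2 (0.073) and within index ACAGTG (0.0569). Nrg1, a ligand of ERBB receptors, was lower at 11.8 ± 4.82 CPM in IP and 52.1 ± 20.4 CPM in unbound (log2 change -2.14 ± 0.40, adjusted p = 0.00204), as was L1cam, an adhesion protein of axons (log2 change -1.66 ± 0.40, adjusted p = 0.00775). Cx3cl1, the ligand neurons present to microglia, had a log2 change of -0.92 ± 0.38 (adjusted p = 0.0803), which passed without IP 4 (0.00168) and within index ACAGTG (0.0232). Tnfrsf1a, Axl, Notch1, Cdh5, L1cam and Cx3cl1 were named after their values were seen. Vessel and microglia markers were higher and neuron markers lower in the same libraries, and their part in these values was not tested.

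**Figure D3:**
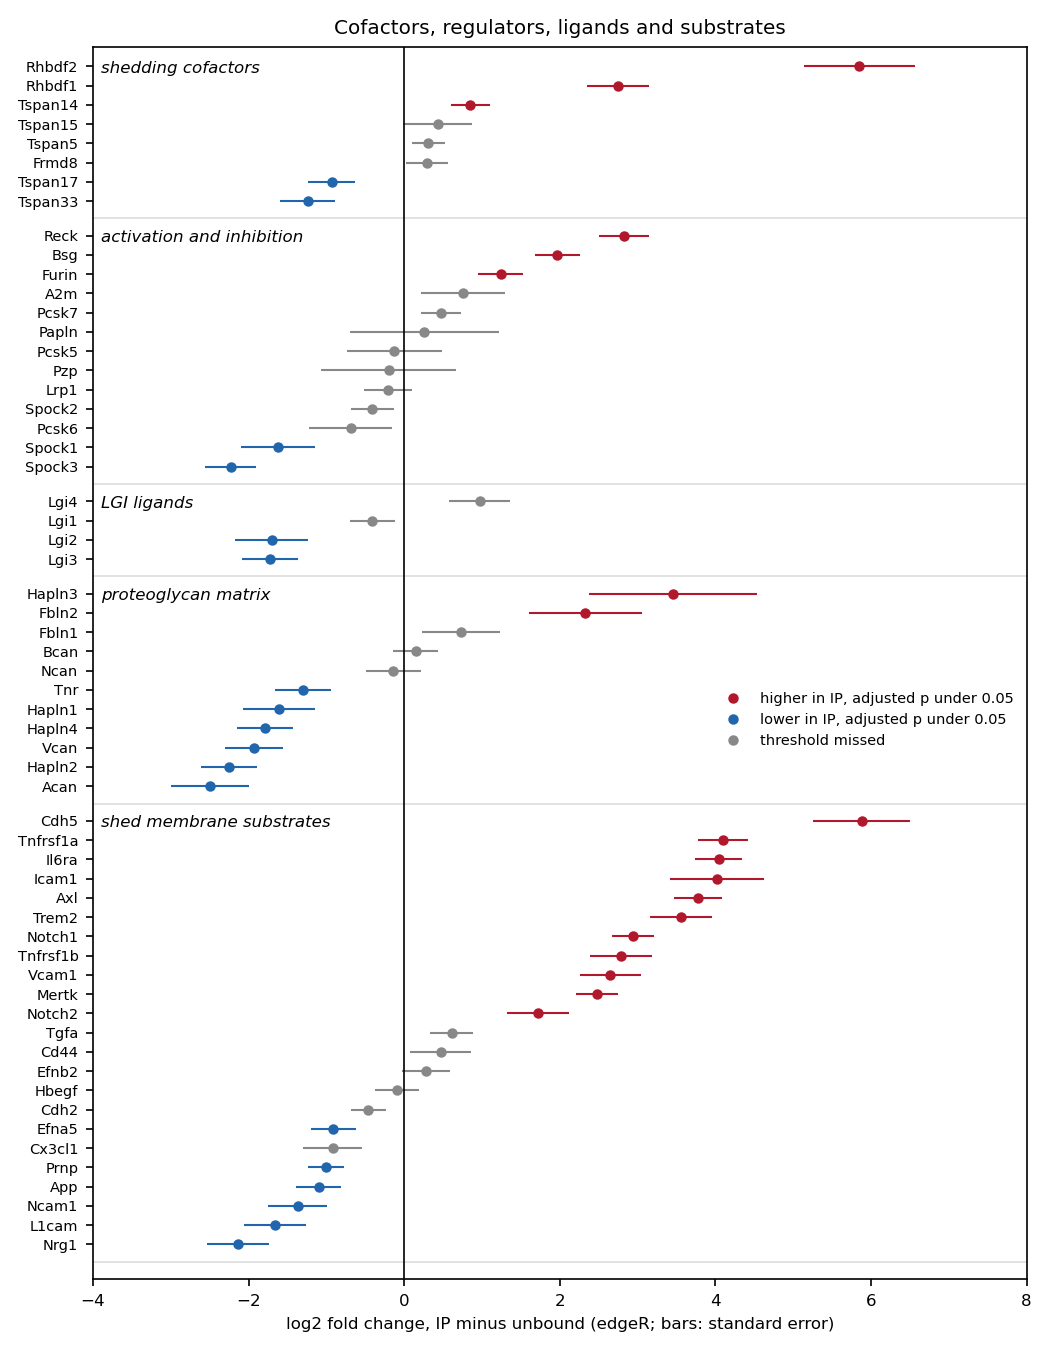
Log2 fold change of IP over unbound (x axis) for the tested genes of 5 lists of cofactors, regulators, ligands and substrates, with bars of 1 standard error. Red and blue points passed an adjusted p of 0.05, grey points did not. Of the shed substrates, 11 of 23 lie to the right of 0 in red, led by Cdh5, and 6 to the left in blue, with Nrg1 lowest. Of the proteoglycan matrix genes, 6 of 11 are blue.

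Ratios between members within a library do not depend on library scaling. They are given for 3 pairs picked for their unlike fold changes, so they describe those differences. A permutation test run on pairs so picked has no independent weight, and its p-values are not given. The ratios are of counts and not per length, so a ratio of 0 on the log2 scale is not an equal level. The log2 ratio of Timp3 to Timp2 was 0.19, 0.54 and -0.44 for IP 1, 2 and 4, against -2.95, -3.67, -3.05 and -2.91 for unbound 1 to 4. It lay higher by 3.24 in IP on average, while per kilobase of exon Timp2 stayed above Timp3 in both kinds of library (values below). The log2 ratio of Adam17 to Adam10 was -0.14, -0.17 and -0.25 for IP 1, 2 and 4, against -1.14, -2.98, -2.16 and -2.30 for unbound 1 to 4. It varied little among IP libraries and more among unbound libraries, with a difference of means of 1.96. The log2 ratio of Mmp14 to Mmp17 was 0.75, -0.19 and -0.61 for IP 1, 2 and 4, against -5.29, -4.25, -2.64 and -3.28 for unbound 1 to 4. Its means differed by 3.85.

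**Figure D4:**
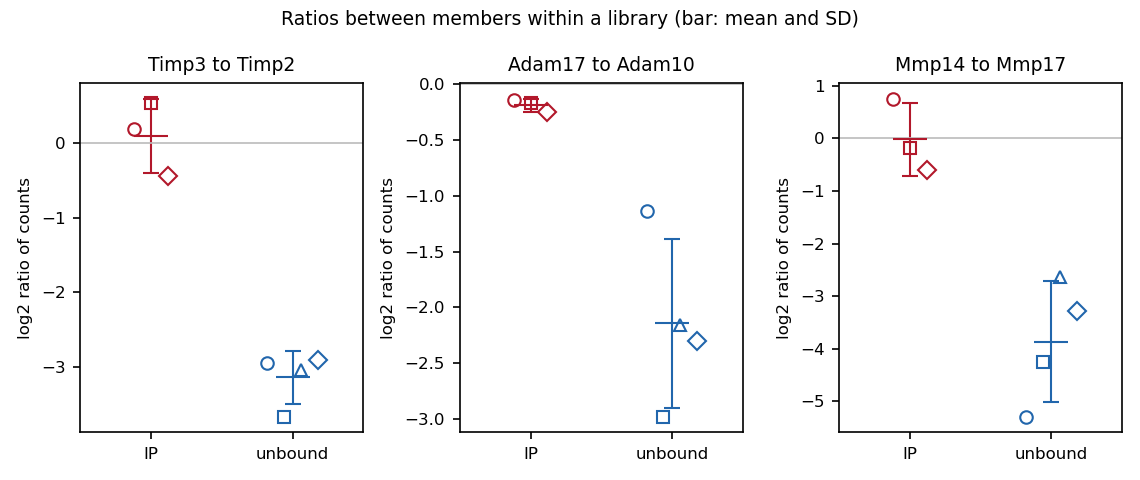
Log2 ratio of counts (y axis) of Timp3 to Timp2, Adam17 to Adam10 and Mmp14 to Mmp17 within each library, red for IP and blue for unbound, shapes for the replicate number as in the plot of values by library, with the mean and SD. IP means are 0.10, -0.19 and -0.02 and unbound means -3.14, -2.15 and -3.87, with no overlap between the kinds in any panel.

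Levels can be set against each other between genes only per length, here as CPM per kilobase of the merged exons in GENCODE M21. Timp2 ranked first in both kinds of library, at 67.6 ± 12.9 for IP, against 124 ± 19.4 for unbound CPM per kilobase. Timp3 was second in IP and the seventh in unbound, at 34.5 ± 5.26 for IP, against 7.05 ± 2.33 for unbound. Adam15 was the third in IP and the ninth in unbound, at 16.9 ± 0.933 for IP, against 5.49 ± 1.66 for unbound. Adam10 was the fourth in both, at 8.44 ± 0.781 for IP, against 12.6 ± 5.01 for unbound. The neuronal Adam22 and Adam23 were second and the third in unbound, at 14.1 ± 5.8 and 12.6 ± 4.02, and the ninth and the tenth in IP, at 4.78 ± 2.19 and 3.9 ± 2.38. Neighbours in this order often lay within their SD: in unbound Adam22, Adam23, Adam10 and Adam11 did, and in IP Adam10 and Timp4, and Adam9, Adam11, Adam17 and Adam22. Mmp17 was the highest MMP in unbound, at 7.82 ± 2, and Mmp15 in IP, at 2.87 ± 0.34. The gelatinases were low in both kinds, Mmp2 at 0.449 ± 0.138 for IP, against 0.685 ± 0.56 for unbound and Mmp9 at 0.542 ± 0.181 for IP, against 0.56 ± 0.468 for unbound.

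**Figure D5:**
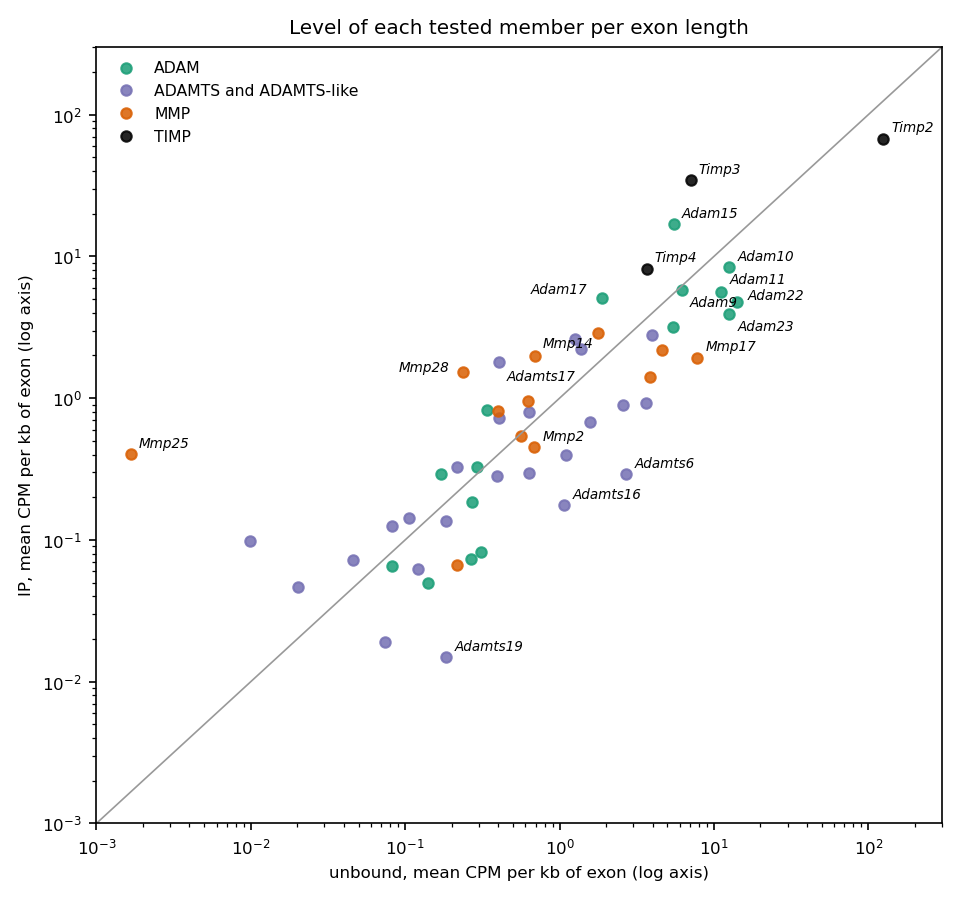
Mean CPM per kilobase of exon in unbound (x axis) and IP (y axis), both log axes, for the tested members, coloured by family, with the line of equal level. Adam3, at 0 in unbound, cannot be drawn. Timp2 lies at the top right, Timp3, Adam15 and Mmp25 above the line and Adam22, Adam23, Mmp17 and Adamts6 below it.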

How the data were processed

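RNA of immunopurified and unbound fractions was analysed as 1 comparison, IP against unbound. Each deposited file holds raw read counts by gene symbol. The submitters' processing notes name STAR 2.0.0e, HTSeq and the build mm10. No source used here states the annotation or the strand setting. The 6 rows that name no gene entered neither library sizes nor tests. Of the reads, 16.6% ± 2.78 in IP and 12.2% ± 0.708 in unbound fell in no gene, and 36.5% ± 3.28 and 24.5% ± 7.28 aligned to more than 1 place (SD, n = 3 and 4). No pair of libraries of a group agreed within sampling noise (chi-square per degree of freedom 77.7 to 1210).

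The fit used edgeR 4.0.16 in R 4.3.3 (filterByExpr, TMM, robust quasi-likelihood test, 2-sided, Benjamini-Hochberg over all genes tested). It was repeated with DESeq2 1.42.0 and limma 3.58.1 voom, with RLE scaling or library size only, with no filter or one of at least 1 CPM in 3 libraries, with a replicate block, with an index covariate, within each index and without each library. The main fit did not pair libraries by replicate number. The correlations in the closing section do not settle whether the numbers mark pairs. Coordinates and exon lengths come from GENCODE M21 (GRCm38, the assembly of mm10), which held all 84 symbols, and promoters from RefSeq (GRCm38.p6).

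Values in every library are given for the TIMP genes, Adam10, Adam17, Adam11, Adam22, Adam23, Mmp2, Mmp9 and Mmp14 and, in each role group and gene list, for the member with the smallest p, the highest mean CPM or the largest change against the majority. Any other tested member may be named with its fold change. Members, roles, lists and rules were chosen with earlier results of these data known. Other genes of the lists were named after their values were seen. On counts simulated for this comparison over 17654 genes with 200 changed, 61.9% of 4-fold but 4.12% of 2-fold changes were called, and 6 of its 70 calls were unchanged genes. The simulation changed a far smaller share of genes than the 39.4% called in the data. Adjusted p-values depend on that share, so these rates need not hold for the fit above.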

Additional observations from a re-analysis of the deposited data

Results flagged for a closer look

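In each of the 55 tested members with unequal unbound values, the highest or lowest of the 4 unbound libraries was compared with the rest. In 7 members 1 library stood farther from its nearest neighbour, as a share of the whole range, than Dixon's 95% limit for 4 values. That limit gives about 1 in 20 by chance only for independent values with a normal spread. CPM values need not have such a spread, and the members share the same libraries. The 7 are thus not weighed against that rate. Unbound 2 stood apart for 3 TIMP genes: Timp2 was low there at 371.6 CPM (514.4 to 530.1 elsewhere in unbound), Timp3 was low at 29.2 CPM (64.1 to 69.7), and Timp4 was high at 33.5 CPM (15.7 to 18.6). Without unbound 2 the log2 fold changes were -0.99, 2.07 and 1.46, each past the threshold (adjusted p = 0.00317, 3.58e-05 and 0.000276, edgeR). The 3 erythroid markers found summed to 64.2 CPM in unbound 2 and to 12.9 to 17.6 CPM in the other unbound libraries.

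Unbound 1 was high for 3 members. Mmp2 reached 5.12 CPM there (1.08 to 1.57 in the other unbound libraries), Mmp19 3.42 CPM (0.626 to 0.807), and Adam5 1.34 CPM (0.0706 to 0.24). Mmp25 held its only unbound counts, 2 of them, in unbound 4, at 0.0353 CPM, which is under the floor of 3 counts.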

How the results depend on the processing

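Of the 23 called members, 8 kept their call under all 17 alternatives, Mmp25 kept it under the 15 in which it passed the filter, 14 lost it under at least 1 and 0 changed sign. Of the 33 others, 11 passed under at least 1. Mmp25 passed the filter through the IP libraries alone, so its kept call is no independent support for a difference. Within index ACAGTG, with 4 libraries, all genes higher and lower numbered 2190 and 1650 (3622 and 3328 with all libraries). Members lower were then 6 (14), ADAM lower 1 (3), ADAMTS and ADAMTS-like lower 4 (7), MMP lower 1 (3), TIMP higher 1 (2) and TIMP lower 0 (1). Within index GTGAAA, with its lone IP library, counts by family are not compared. The higher ADAMTS and ADAMTS-like genes, 1 in the report, numbered 2 with library size only, limma voom and the index as covariate, and 3 with DESeq2. Leaving out each library in turn gave 2796 to 4050 genes higher and 1751 to 3632 lower, with 7 to 11 members higher and 7 to 16 lower. By family these were, higher then lower, ADAM 3 to 4 and 1 to 4, ADAMTS and ADAMTS-like 1 to 2 and 3 to 8, MMP 1 to 4 and 2 to 3, TIMP 2 in every case and 0 to 1. IP 1 and IP 2 moved the lower counts most, with 1899 and 1751 genes lower without them, and without IP 4 1 MMP was higher. The cause was not tested.

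Same-numbered IP and unbound libraries deviated from their group means with correlations across genes of -0.03, 0.04 and 0.16. With so few pairs, these values cannot settle whether same-numbered libraries belong together. IP 1 correlated best with unbound 2 (0.20), IP 2 and IP 4 with their own number. With the replicate block, 8 members were higher and 11 lower, with 2 TIMP genes among the higher and 0 among the lower. Under the block the log2 fold changes were -0.83 for Timp2, -1.07 for Adamts2 and -0.99 for Adamtsl1, past the threshold in none, and Adam3 was not called. Of the list genes named, Tspan14, Tspan17 and Hapln3 missed the threshold under the block (adjusted p = 0.072, 0.0769 and 0.0669), and Lgi4 and Cx3cl1 passed it (0.0494 and 0.0372).

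Only values that missed the threshold changed sign, as log2 fold changes. With limma voom these were Adam4 -0.33 and Mmp9 0.14. With the replicate block they were Adam33 0.22, Adam4 -0.39, Adam9 0.07, Adamts8 -0.16, Adamtsl4 0.04 and Mmp9 0.24. With the index as covariate it was Adamts8 -0.17. Within index ACAGTG they were Adam12 -0.15, Adam1a 0.04, Adam33 0.23, Adamts15 0.06, Adamtsl4 0.36 and Pzp 0.10. Within index GTGAAA they were Adam4 -1.86, Adam5 2.16, Adam9 0.08, Adamts12 -1.26, Adamts8 -1.95, Adamtsl2 -0.42, Adamtsl3 0.51, Adamtsl5 -0.17, Mmp9 0.81, Lrp1 0.20 and Ncan 0.42. Leaving out each library in turn gave Adam12 -0.10 to 0.77, Adam4 -1.53 to 1.26, Adam9 -0.32 to 0.19, Adamts12 -0.03 to 1.19, Adamts5 -0.09 to 0.62, Adamts7 -0.10 to 1.82, Adamts8 -0.41 to 0.96, Adamtsl3 -1.73 to 0.06, Bcan -0.07 to 0.38, Lrp1 -0.41 to 0.04, Mmp2 -0.86 to 0.14, Mmp9 -0.37 to 0.69, Ncan -0.39 to 0.17, Pzp -0.94 to 0.11. The cause was not tested. Members under the filter on low values were not tested, and the depth limits what can be said of them.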

Other observations

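Dopamine neuron markers, which define a main cell group of the midbrain, summed to 169 to 180.4 CPM in IP and 176 to 227 CPM in unbound, with 1 of 4 lower in IP. Midbrain region genes summed to 35.8 to 54.2 CPM in IP and 36.9 to 45.7 CPM in unbound, with 1 of 4 lower. Ependymal and choroid plexus markers summed to 114 to 319 CPM in IP and 61.1 to 82.1 CPM in unbound, with 3 of 9 tested higher and IP 4 highest. The 3 erythroid markers found were lower in IP, at 2.09 to 4.71 CPM in IP and 12.9 to 64.2 CPM in unbound.

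ADAM genes form further runs with little signal. On chromosome 8, Adam24, Adam25, Adam20 and Adam39 lie within 152.0 kb and held 39 counts over all 7 libraries, and Adam26b, Adam26a and Adam34 lie within 190.3 kb and held 8. Adam7 and Adam28, neighbours on chromosome 14, held 70.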
